A study of Mus musculus with 4 samples.

Results

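RNA polymerase II (Pol II) occupancy in mouse embryonic stem cells with a hairpin against Spt4 was compared with that in cells with a control hairpin, both under flavopiridol. The libraries were chosen by their knockdown label, which gave 2 of the 4 libraries of the series, 1 per side. The cells were V6.5, a line of C57BL/6-129 background, and the control shRNA is named only as control in the labels. The shSpt4 and shControl cultures were infected with their hairpins about 4 days before fixation, and both received 1 µM flavopiridol for 1 h. The shSpt4 cells had been grown for 2 passages without feeder fibroblasts and the shControl cells for 1. Their libraries were also sequenced on different flow cells, so hairpin, flow cell and passage cannot be told apart in any value below. The other libraries, with hairpins against Spt5 (shSpt5) and NelfE (shNelfE), had the drug, hairpin time and passages of shSpt4 and shared its flow cell. They were used to set classes of regions without the compared libraries, and as side values.

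Spt4 is the small zinc-finger subunit of DSIF, which it forms with Spt5. Spt5 contacts the Pol II clamp and the nascent RNA, and Spt4 binds and stabilises it. Soon after initiation DSIF and NELF hold Pol II at a pause downstream of the promoter. The kinase Cdk9, as part of P-TEFb, phosphorylates Spt5, NELF and the Pol II tail, after which NELF leaves and DSIF travels with the elongating enzyme. Flavopiridol inhibits Cdk9 and so keeps Pol II from entering gene bodies. The comparison therefore describes Pol II in cells with the Spt4 hairpin and the control hairpin while Cdk9 is inhibited. The antibody was raised against the N-terminus of Rpb1, the catalytic subunit, and does not depend on phosphorylation of its tail.

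The shSpt4 library held 2646944 distinct tags, a tag being 1 mapped position on 1 strand, and shControl held 3170090. Repeated positions made up 8.13% and 9.07% of the deposited reads. The offset between the strands, a measure of fragment length, was 87 bp in shSpt4 and 82 bp in shControl. The 4 libraries pooled at equal depth gave 14036 enriched regions with a median width of 700 bp, which covered 0.423% of the occupied genome. The deposited positions refer to the mouse build mm8, for which no gene annotation or genome was used here, so regions are given by position and without gene names or sequence. The level of Spt4 was not measured in these libraries, and the strength of the knockdown is not known from them. With 1 library per side there is no replicate check and no p-value. All intervals are exact 95% intervals of counting error, and PCR copies at neighbouring positions are not independent molecules.

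Most regions carried fewer Pol II tags in shSpt4 than in shControl, and the typical difference was small. Scaled to 1000000 kept tags (normalised tags), the summed ratio over all regions was 0.830 (0.827 to 0.833). The median ratio was 0.811 (log2 -0.30), and 71.7% of regions were below 1. The middle 90% of ratios ran from 0.318 to 1.75. Every autosome had a median below 1, from 0.762 on chromosomes 8 and 15 to 0.878 on chromosome 13. Regions with a ratio of 2 or more, or of 0.5 or less, were called if the interval excluded 1. By that rule 1321 of 14036 regions (9.41%) were lower in shSpt4 and 166 (1.18%) were higher. Depth limits these calls. At the 1787 regions with 20 to 30 tags in shControl the median interval ran from 0.341 to 1.43, and at the 337 regions with at least 200 it ran from 0.687 to 1.01. At any size of change, the interval lay below 1 at 2518 regions and above 1 at 324.

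**Figure D1:**
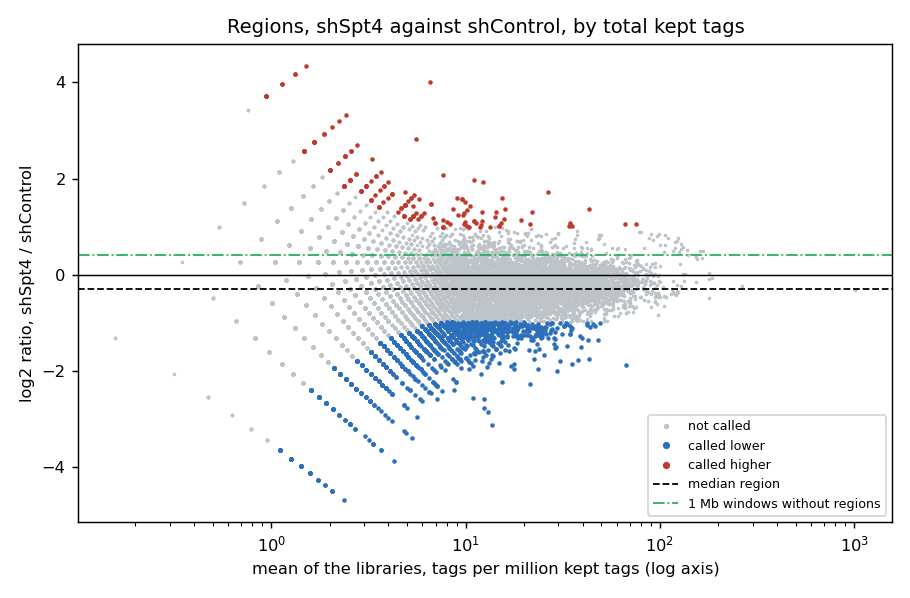
Log2 ratio of shSpt4 to shControl (vertical) against the mean normalised tags of the libraries (horizontal, log axis), 1 point per region. Blue and red points are the 1321 lower and 166 higher calls by total tags; the dashed line is the median region (log2 -0.30) and the dash-dotted line the ratio of 1.33 in 1 Mb windows without regions.

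The size of this difference depends on what the libraries are scaled to. In the 497 autosomal windows of 1 Mb that held no region, shSpt4 had more tags than shControl, with a ratio of 1.33 (1.32 to 1.33) by total tags and a median of 399 shSpt4 tags per window. Scaled to these windows, the median region moved from log2 -0.30 to -0.71 (a ratio of 0.612), and 87.8% of regions were below 1. The calls became 3334 lower (23.8%) and 42 higher (0.299%). Scaled so that the median region had a ratio of 1, they became 568 lower (4.05%) and 379 higher (2.7%), so the split between lower and higher calls is set by the scaling. All 42 regions higher by windows were also higher by total tags, and all 1321 lower by total tags were lower by windows.

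Regions with more tags had a smaller typical difference. Among the 6343 regions with at least 50 tags in the 2 libraries together, the median ratio was 0.828, with 488 lower (7.69%) and 41 higher calls (0.646%). Among the 208 with at least 400 it was 0.901, and 1 region was lower (chromosome 13, 44913351 to 44914450) and 1 higher (chromosome 4, 116687451 to 116688700, 268 against 154 tags, 2.08). The latter had a ratio of 1.57 by windows, where it was not called, and its ratio to the same control count was 2.11 in shSpt5 and 2.05 in shNelfE. These regions were named after their values were seen. The ratios of deeply covered regions still differed among themselves by more than counting error. At 200 tags or more (1286 regions) the standard deviation of the log2 ratio was 0.36, where counting error alone accounts for 0.18. At 400 tags or more it was 0.40 against 0.13.

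The 10 regions with most tags fell on both sides of 1, with ratios from 0.720 to 1.41. The first, on chromosome 17 (39451101 to 39454750), held 2383 tags in shSpt4 and 3573 in shControl, a ratio of 0.799 (0.758 to 0.841). Its neighbour at 39456001 to 39456950 had 640 and 902 tags (0.850, 0.767 to 0.941). Both regions are so dense that 1 tag per position sets a ceiling. No annotation was used, so whether they hold sequence present in many copies, or tags that do not reflect Pol II, was not tested. With all deposited tags kept, the first had 3339 against 6338 and its ratio fell to 0.638, and its neighbour had 971 against 1704 and a ratio of 0.690. On chromosome 1 (88357101 to 88360200) 396 tags stood against 659 (0.720, 0.634 to 0.816). On chromosome 13, the region at 23745951 to 23747600 had 481 against 602 tags (0.957, 0.847 to 1.08) and that at 23562201 to 23563700 had 478 against 562 (1.02, 0.900 to 1.15), both within counting error of 1.

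At 4 of these 10 regions shSpt4 had more tags than shControl by total tags, with intervals above 1. They lay on chromosome 5 (115750101 to 115751850, 498 against 422 tags, ratio 1.41), chromosome 6 (124706101 to 124707350, 514 against 439, 1.40), chromosome 10 (39946851 to 39948550, 489 against 462, 1.27) and chromosome 1 (72187751 to 72189300, 456 against 438, 1.25). Against the windows without regions their ratios were 1.07, 1.06, 0.956 and 0.940, and all 4 intervals included 1. None of the 10 was called in either direction by total tags or by windows.

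The regions with the lowest ratios carried few tags in shSpt4. The region on chromosome 10 (75375801 to 75376350) held 2.65 normalised tags in shSpt4 (7 tags) and 24.6 in shControl (78 tags), with 4.49 in shSpt5 and 12.3 in shNelfE. Its ratio was 0.107 (0.0418 to 0.232), and both strands were low, with 3 plus-strand and 4 minus-strand tags against 41 and 37. On chromosome 18 (36406401 to 36407700) shSpt4 had 8 tags and shControl 73 (0.131, 0.0546 to 0.273), with 5.13 normalised tags in shSpt5 and 14.3 in shNelfE. On chromosome 12 (103105651 to 103106650) the tags were 8 and 69 (0.139, 0.0577 to 0.289), with 1.93 normalised tags in shSpt5 and 8.17 in shNelfE. At each of these 3 regions shControl was the highest library and shNelfE the next, with shSpt4 and shSpt5 both lower. That shControl lies above shSpt4 is fixed by the choice. The order did not hold at all 10 lowest regions. On chromosome 5 (119930851 to 119931900) shSpt5 had 20.2 normalised tags, shNelfE 18.4 and shSpt4 7.18.

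The other 7 of the 10 lowest regions had ratios from 0.159 to 0.207. They lay on chromosome 11 (32514351 to 32515050, with 9 against 68 tags, and 51490451 to 51490900, with 7 against 47), on chromosome 16 (8654551 to 8655250, with 8 against 60, and 84656451 to 84657300, with 14 against 81), on chromosome 5 (119930851 to 119931900, with 19 against 113), on chromosome 1 (75388651 to 75389750, with 8 against 47) and on chromosome 4 (124629851 to 124630400, with 8 against 47). All 10 were also lower by windows. They were picked for low ratios to this control library, and their ratios in the other libraries share it. The median ratio to shControl over the 10 was 0.169 in shSpt4, 0.192 in shSpt5 and 0.519 in shNelfE. Over all 14036 regions these medians were 0.811, 0.589 and 0.759.

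Lower calls were also made at regions with many tags. The lower region with most tags was on chromosome 13 (44913351 to 44914450), with 76 tags in shSpt4 and 334 in shControl (0.273, 0.210 to 0.351). Its normalised tags were 28.7 in shSpt4, 105 in shControl, 1.60 in shSpt5 and 50.7 in shNelfE, so that shSpt4 kept far more signal there than shSpt5. On chromosome 1 (64671151 to 64672600) the level was 26.8 in shSpt4 and 69.4 in shControl (0.387, 0.292 to 0.507). The other 3 of the 5 lower regions with most tags had ratios from 0.473 to 0.495: chromosome 8 (38081301 to 38082900, 79 against 200 tags, 0.473), chromosome 10 (62280801 to 62283000, 78 against 192, 0.487) and chromosome 15 (38243851 to 38246200, 86 against 208, 0.495). All 5 were lower by windows too.

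A small number of regions gained tags in shSpt4. On chromosome 14 (71971851 to 71973400) shSpt4 held 40.8 normalised tags (108 tags) and shControl 12.3 (39 tags), with 23.4 in shSpt5 and 12.9 in shNelfE. Its ratio of 3.32 (2.28 to 4.91) was carried by both strands, with 53 against 20 plus-strand and 55 against 19 minus-strand tags. Against the windows it was 2.50 (1.72 to 3.71). On the X chromosome (7034801 to 7035600) the levels were 23.1 in shSpt4, 7.57 in shControl, 6.10 in shSpt5 and 6.81 in shNelfE, so shSpt4 stood above the other 3 libraries (ratio 3.04, 1.87 to 5.11). On chromosome 3 (129208801 to 129209450) shSpt4 had 52 tags and shControl 16 (3.89, 2.19 to 7.30), and here shSpt5 was raised as well, at 12.2 normalised tags against 5.05 in shControl.

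The highest ratio among regions with at least 50 tags was 4.02 (2.18 to 7.91), on chromosome 2 (13491551 to 13492900), with 47 tags against 14. The remaining 6 of the 10 highest, on chromosomes 15, 2, 9, 12, 1 and 3, had ratios from 2.61 to 3.08 and at most 61 tags in shSpt4. The one on chromosome 1 (36501001 to 36501950) had 41 against 18 tags (2.73, 1.53 to 5.05). Of the 10, 9 were also called higher by windows, the exception being chromosome 3 (116415801 to 116417300, 61 against 28 tags), which had a ratio of 1.97 by windows. The median ratio of the 10 to shControl was 3.04 in shSpt4 and 1.15 in shNelfE, and in shSpt5 their ratios ran from 0.545 to 2.54. Over all 14036 regions the median was 0.759 in shNelfE and 0.589 in shSpt5. A region below the naming limit of 50 tags, chosen after its values were seen, had a larger difference. On chromosome 3 (127536901 to 127537500) shSpt4 held 33 tags, 20 on the plus and 13 on the minus strand, and shControl held 2, shSpt5 5 and shNelfE 4. Its ratio was 19.8, with a wide interval (5.05 to 170).

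**Figure D2:**
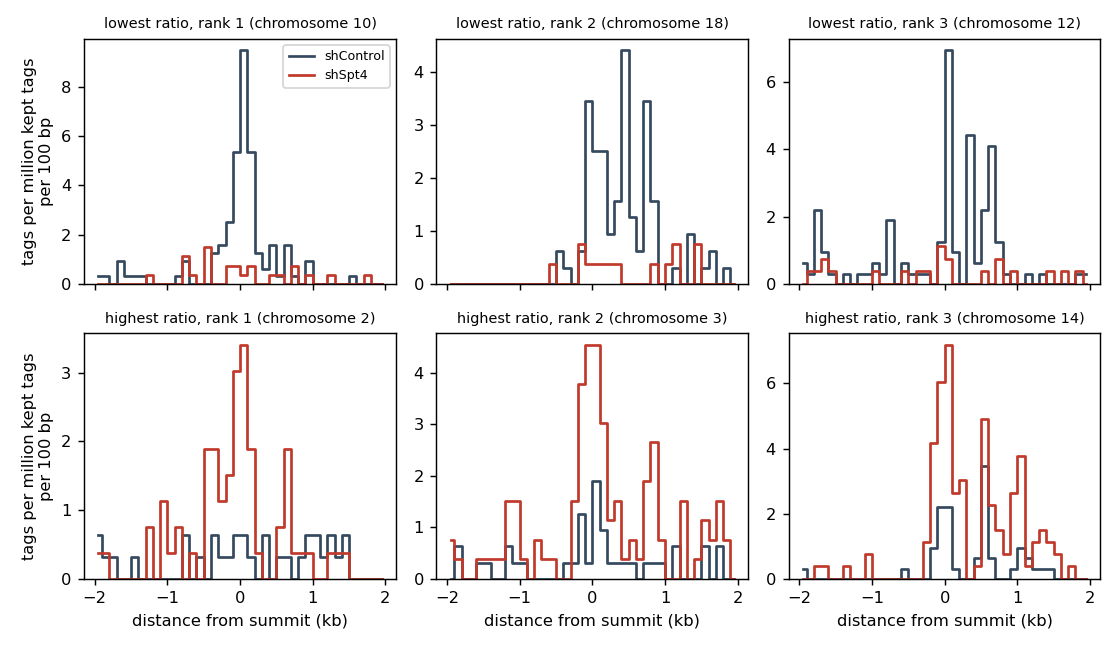
Normalised tags per 100 bp (vertical) by distance from the summit in kb (horizontal), in shControl (dark) and shSpt4 (red), at the 3 regions with the lowest and the 3 with the highest ratios. The top row shows summits of shControl with 78, 73 and 69 tags where shSpt4 has 7, 8 and 8; the bottom row shows summits of shSpt4 with 47, 52 and 108 tags where shControl has 14, 16 and 39.

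Extreme ratios are partly counting error, because regions are picked for them. The strands of a library come from separate reads, so regions were picked on one strand and read on the other. Of the 6343 regions with at least 50 tags, 594 had a plus-strand ratio of 0.5 or less, with a median of 0.423. Their minus-strand tags gave a median of 0.545, and 554 of them (93.3%) were below 1, where 72.5% of all 6343 were. Picked on the minus strand, 628 regions had a median of 0.424 there and 0.580 on the plus strand. In the other direction, the 60 regions with a plus-strand ratio of 2 or more had a minus-strand median of 1.59, and 52 of them (86.7%) were above 1, against 27.5% of all. The differences thus shrank and kept their direction at most picked regions. Both strands share 1 immunoprecipitation and PCR, so this speaks to counting error alone. Across the 1286 regions with at least 200 tags, the log2 ratios of the strands had a Pearson correlation of 0.68, as a description of regions within 1 pair of libraries.

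Neighbouring regions had similar ratios. Between adjacent regions of at least 50 tags each, the Pearson correlation of the log2 ratio was 0.47 at under 2 kb (81 pairs), 0.42 at 2 to 10 kb (552 pairs) and 0.20 at 10 to 50 kb (1382 pairs). At 50 to 200 kb it was 0.02 (862 pairs). At 2 to 10 kb, 23 of the 60 regions called lower (38.3%) were followed by another lower region, where 10.3% of all following regions in these pairs were lower. At 50 to 200 kb this was 3 of 49 (6.12%) against 7.66%. The resemblance was thus local. Pairs under 2 kb can also share the flank of 1 stretch of signal.

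Outside the regions, the ratio of shSpt4 to shControl rose with distance from them. On autosomes it was 0.918 (0.912 to 0.926) at 2 to 5 kb from the nearest summit, 0.938 at 5 to 10 kb, 0.987 at 10 to 50 kb, 1.04 at 50 to 200 kb and 1.23 (1.23 to 1.24) beyond 200 kb. The range over the 19 autosomes at 2 to 5 kb (0.861 to 1.03) did not overlap that beyond 200 kb (1.16 to 1.30). The number of regions in a 1 Mb window showed the same gradient. Tags outside regions had a ratio of 1.33 in windows without a region, 1.18 in the 514 windows with 1 to 2 regions, 1.08 with 3 to 5, 1.00 with 6 to 10, 0.934 with 11 to 20, and 0.880 (0.875 to 0.885) in the 111 windows with 21 or more. Windows without regions are therefore the upper end of a gradient and not a level common to all background tags.

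The regions were lower than their own surroundings in each of these classes, by an amount that shrank with crowding. Inside regions the ratio was 0.882 (0.866 to 0.899) in windows with 1 to 2 regions and 0.813 (0.807 to 0.819) in windows with 21 or more. Divided by the ratio outside regions of the same windows, this gave 0.749 with 1 to 2 regions, 0.803 with 3 to 5, 0.834 with 6 to 10, 0.869 with 11 to 20 and 0.924 with 21 or more. In crowded windows shSpt4 thus had fewer tags both in and between regions. The gradient was also present against the same control library in shSpt5 (from 1.55 without a region to 0.859 with 21 or more) and in shNelfE (1.28 to 0.949). All 3 knockdown libraries share a flow cell that the control lacks. The part of flow cell, base composition and background in this gradient was not tested.

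**Figure D3:**
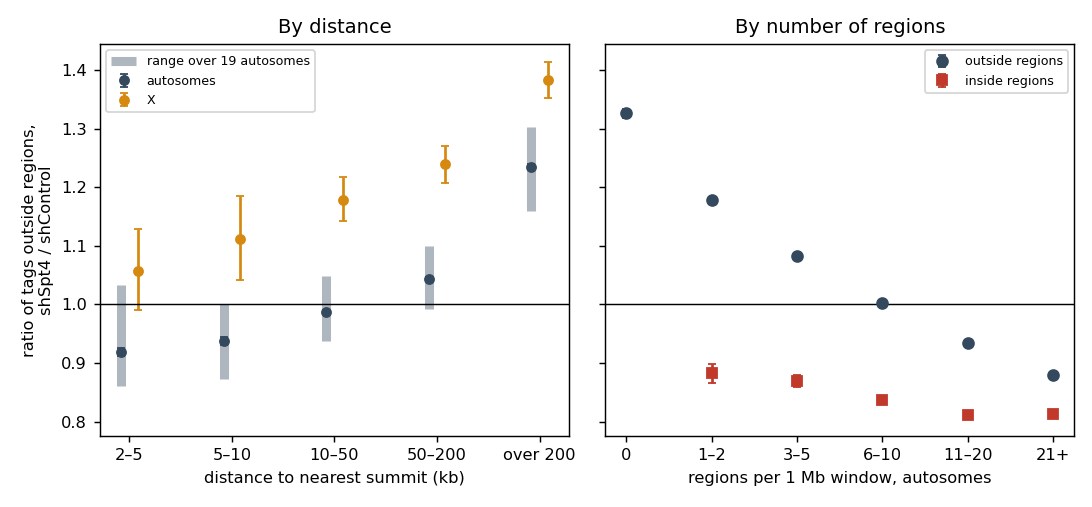
Ratio of shSpt4 to shControl by total kept tags (vertical). Left: tags outside regions by distance to the nearest summit in kb, for autosomes (dark, with the range over 19 autosomes in grey) and X (orange), rising on autosomes from 0.918 to 1.23. Right: autosomal 1 Mb windows by number of regions, with tags outside (dark circles, 1.33 down to 0.880) and inside regions (red squares, 0.882 down to 0.813); bars are exact 95% intervals.

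Outside regions, X stood above the autosomes, which also differed among themselves. In windows without regions the ratio ran from 1.24 on chromosome 9 to 1.39 (1.35 to 1.43) on chromosome 16. On X it was 1.415 (1.37 to 1.46), whose interval overlaps that of chromosome 16, so X was not set apart by this measure. Outside regions at over 10 kb from a summit it ran from 1.01 on chromosome 11 to 1.14 on chromosome 3. On X this ratio was 1.29 (1.27 to 1.31), above every autosome. The X ratio was above the highest autosome in each distance class, from 1.06 at 2 to 5 kb (autosomes up to 1.03; its interval, 0.990 to 1.13, reaches below that) to 1.38 beyond 200 kb (autosomes up to 1.30). Against the same control, X also stood above the summed autosomes in the other libraries, in each distance class. At 10 to 50 kb the ratios on X and on autosomes were 1.24 and 1.01 in shSpt5. In shNelfE they were 1.12 and 1.02. At regions, X did not stand apart from every autosome in shSpt4. The 409 regions on X had a median ratio of 0.931, where autosomal ones had 0.809, and 16 (3.91%) were lower and 7 (1.71%) higher. The summed ratio over regions was 0.921 (0.897 to 0.947) on X and 0.914 (0.897 to 0.932) on chromosome 13, the highest autosome. The lowest was chromosome 8, at 0.770 (0.759 to 0.781), so autosomes differed by more than counting error.

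**Figure D4:**
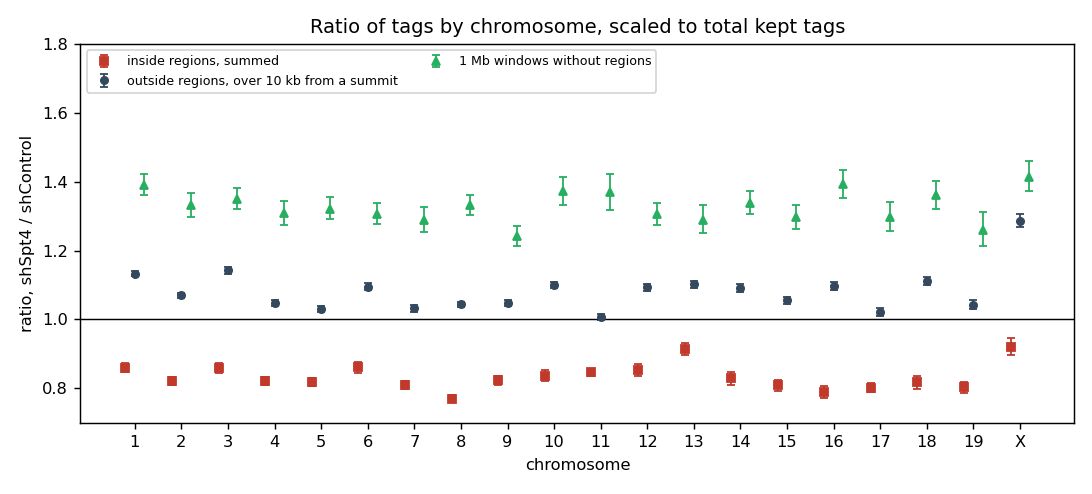
Ratio of shSpt4 to shControl by total kept tags (vertical) for each chromosome (horizontal): tags inside regions (red squares), tags outside regions over 10 kb from a summit (dark circles) and 1 Mb windows without regions (green triangles), with exact 95% intervals. On every autosome the 3 measures keep this order, and X has a ratio of 1.29 over 10 kb from a summit where autosomes reach 1.14.

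The deficit of shSpt4 was largest near the summit. Within 150 bp the density was 23.0 normalised tags per kb per region in shSpt4 and 28.0 in shControl, a ratio of 0.821 (0.817 to 0.825). The ratio was 0.826 at 150 to 500 bp, 0.887 at 500 bp to 1 kb and 0.898 at 1 to 2 kb. Further out it stayed below 1, at 0.889 (0.883 to 0.894) at 2 to 5 kb and 0.871 (0.867 to 0.875) at 5 to 10 kb, where neighbouring regions are included. At the 7683 isolated regions, whose nearest summit was over 20 kb away, it was 0.831 (0.825 to 0.837) within 150 bp, 0.918 (0.906 to 0.929) at 500 bp to 1 kb and 0.991 (0.978 to 1.01) at 1 to 2 kb. At 1 to 2 kb these regions had 0.916 normalised tags per kb in shSpt4 and 0.924 in shControl. Their ratio was slightly below 1 further out, at 0.979 (0.968 to 0.989) at 2 to 5 kb and 0.968 (0.960 to 0.976) at 5 to 10 kb. By windows, the same isolated regions had ratios of 0.627 within 150 bp and 0.748 at 1 to 2 kb. The pattern was not particular to shSpt4. By total tags and against the same control, the ratio at isolated regions rose in shSpt5 from 0.573 within 150 bp to 0.913 at 1 to 2 kb. In shNelfE it rose from 0.740 to 0.947. The knockdown libraries share a flow cell that shControl lacks, and its part was not tested. The centre over flank contrast of shSpt4 does not depend on the scaling. The ratio within 150 bp divided by that at 1 to 2 kb was 0.914 over all regions and 0.839 over isolated ones. Background was not taken off in this contrast. It had a ratio of 1.33 in windows without regions, and it weighs more where the density is low, as at 1 to 2 kb. The part of background in the contrast was not tested.

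**Figure D5:**
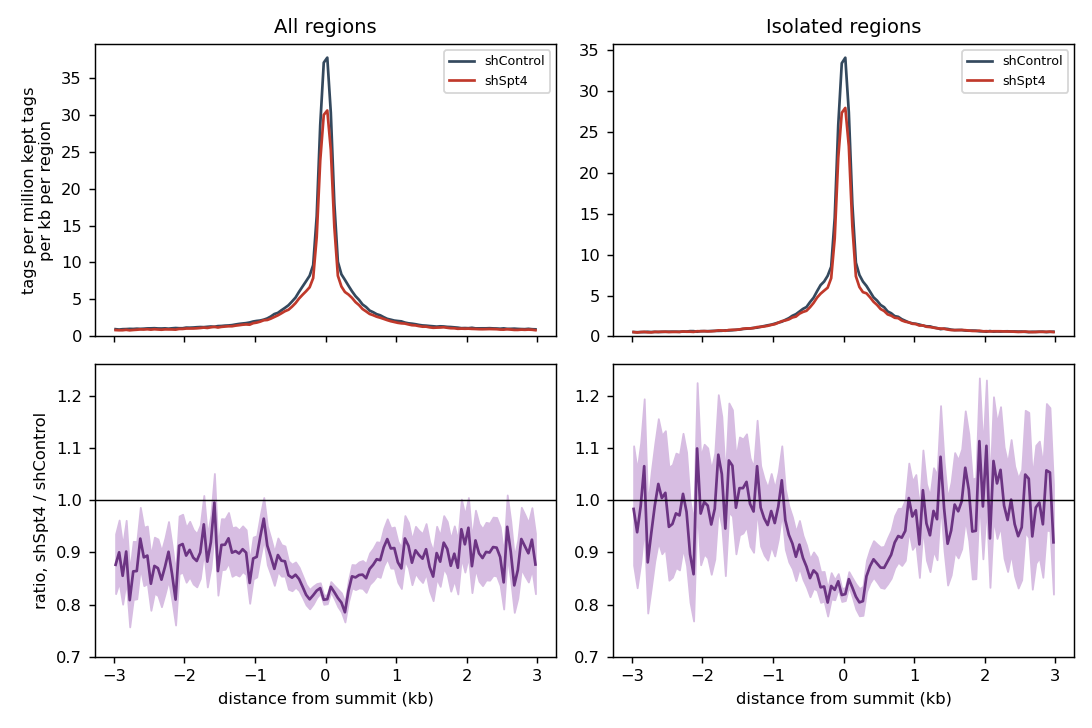
Mean density in normalised tags per kb per region (top) and ratio of shSpt4 to shControl with its exact 95% interval (bottom), by distance from the summit in kb, for all regions (left) and isolated regions (right). The ratio is near 0.82 at the centre in all regions and near 0.83 in isolated ones, where it is 0.991 at 1 to 2 kb.

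The focal ratio, the density within 500 bp of the summit over that 1 to 3 kb away, was lower in shSpt4 at 61.8% of regions. Its median was 8.80 in shSpt4 and 10.9 in shControl, with a median log2 difference of -0.28 and autosome medians from -0.39 to -0.20. With the background of windows without regions taken off, the difference was -0.19. It stands in for the travelling ratio, promoter over gene body, that needs an annotation.

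At 1458 strong regions 1 flank carried at least 2 times the tags of the other in shSpt5 and shNelfE together, which allowed a direction to be set without the compared libraries. On the heavier side the ratio was 0.842 (0.831 to 0.853) within 250 bp, 0.871 at 500 bp to 1 kb and 0.902 (0.886 to 0.919) at 1 to 2 kb, where shSpt4 had 5.43 and shControl 6.01 normalised tags per kb. On the lighter side it was 0.871 (0.860 to 0.882), 0.929 and 0.970 (0.930 to 1.01), with 1.03 and 1.06 normalised tags per kb at 1 to 2 kb. Tags were thus fewer on both sides of the summit, and the ratio on the heavier side was below that on the lighter side in all 6 distance classes. Background was not taken off in these ratios. It had a ratio of 1.33 in windows without regions, and at 1 to 2 kb the lighter side held fewer tags per kb. The part of background in the difference between the sides was not tested. The mean tag position within 500 bp of the summit was measured at the 959 of these regions with at least 50 tags in each library. The median shift of shSpt4 toward the heavier flank was -3.75 bp (-6.21 to -1.06, from the ranks of the regions, which are not replicates), a small shift away from that flank, and 45.6% of the regions shifted toward it. Autosome medians ran from -13.6 to 7.49 bp, and the counting error at a typical single region was 27.5 bp. The spread of tag positions was wider in shSpt4 at 56.3% of the regions, by a median of 4.32 bp (2.31 to 6.03), with median spreads of 190.5 bp in shSpt4 and 187 bp in shControl. The strand offsets of the libraries differed too, at 87 and 82 bp, and their part in these differences was not tested.

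Classes of regions differed in how much shSpt4 fell below shControl. To keep the compared libraries out of the choice, regions were called again from shSpt5 and shNelfE, which gave 9582 regions with a median ratio of 0.815, 808 lower calls (8.43%) and 98 higher calls (1.02%). In 4 classes by occupancy in those libraries, from fewest to most tags, the summed ratio was 0.762 (0.748 to 0.777), 0.761 (0.752 to 0.771), 0.806 (0.799 to 0.813) and 0.873 (0.868 to 0.878). The class with most tags in shSpt5 and shNelfE was thus closest to the control level. Those libraries share the flow cell and passages of shSpt4, so their ranking may not be independent of its values. The part of the ranking in this trend was not tested. The class with most tags had 60 lower calls of 2396 (2.5%). More tags narrow the interval, but they also leave less counting error to carry a ratio past the limit for a lower call. The part of depth in this low share was not tested. By width the summed ratio was 0.758 (0.746 to 0.770) under 500 bp, 0.818 from 500 bp to under 1 kb, 0.863 (0.858 to 0.868) from 1 kb to under 2 kb and 0.842 (0.825 to 0.860) at 2000 bp or more.

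The trend with spacing depended on the measure and the set of regions. In the 9582 regions the summed ratio showed no steady trend. It was 0.860 (0.841 to 0.880) with the nearest summit under 2 kb away and 0.838 (0.831 to 0.846) at 2 to 10 kb. At 10 to 20 kb it was 0.830, at 20 to 100 kb 0.828 (0.823 to 0.834) and at 100 kb or more 0.865 (0.856 to 0.875). Their median ratios in these classes were 0.829, 0.786, 0.801, 0.817 and 0.856, a rise from 2 to 10 kb outward. Over all 14036 regions the summed ratios were 0.812, 0.820, 0.818, 0.832 and 0.874, highest at the widest spacing. Among the 3509 strongest of the 14036 regions, the 382 without signal in either flank had a median ratio of 0.910, the 1236 with 1 flank 0.871 and the 1891 with both flanks 0.825. Their lower calls numbered 6 (1.57%), 27 (2.18%) and 85 (4.49%). Strong regions with signal on both sides thus had the lowest ratio to shControl of the 3, and the most tags, with medians of 78 in shSpt4 and 114 in shControl. All 8 regions of 3000 bp or more were below 1, with a median of 0.785, and none was called.

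Regions were also called in each library alone, with shControl thinned to the 2646944 tags of shSpt4. This gave 7522 regions in shSpt4 and 9050 in shControl, both with a median width of 600 bp. Of the shSpt4 regions 90.1% overlapped one of shControl, and of the shControl regions 74.6% overlapped one of shSpt4. The 2297 regions found in shControl alone were weak, with a median of 16 tags in shControl and 6 in shSpt4, and the 741 found in shSpt4 alone had a median of 12 tags there and 9 in shControl. The shControl regions that overlapped had medians of 37 tags in shSpt4 and 56 in shControl. These medians count all kept tags, 2646944 in shSpt4 and 3170090 in shControl, and are not at equal depth. The choice by library fixes the direction in the unshared lists, so no ratio is read from them.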

How the data were processed

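The authors deposited 1 signed genome position per aligned read, the sign giving the strand, with no normalization, per the file headers. Bowtie aligned the reads to mm8 with the options -e 70 -k 2 -m 2 -n 2 -l 36, per the file headers. Its version is not stated in the sources at hand. Chromatin was sonicated and amplified with 18 PCR cycles, per the labels' protocols. The first read category was used, reduced to 1 tag per signed position, and each tag was moved 42 bp toward the fragment centre.

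Regions came from windows of 250 bp with a Poisson p under 1e-09, given the genome-wide or, if larger, the local density (5000 bp each side, leaving out 1000 bp), merged within 500 bp. Ratio intervals are exact, from the binomial distribution of tags given their sum; log2 values used a pseudocount of 0.5 tags. A strong region was in the highest of 4 equal classes by tags in shSpt5 and shNelfE; a flank had signal at 3 times the density of windows without regions and at least 6 tags. A 1 Mb window needed 100 tags over the 4 libraries. Named regions were the 10 with most tags, the 10 lowest and 10 highest ratios among called regions with at least 50 tags, and the 5 with most tags among those lower, and among those higher by both scalings. Members and tests were chosen with earlier results of these data known. The calls were tested on simulated counts with counting error alone, and the region finder on pile-ups over a uniform background. The spread of the real ratios beyond counting error was not simulated. These tests therefore do not measure how many calls that spread produces. Python 3.11.15, numpy 2.4.6 and scipy 1.17.1 were used.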

Additional observations from a re-analysis of the deposited data

How the results depend on the processing

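The direction of every summary value held under the 64 alternatives run; 26 values stayed within their interval (counts within 1.5 times) and 38 moved. The median log2 ratio of -0.30 was -0.71 scaled by windows without regions, -0.36 by tags outside regions, -0.40 by tags over 10 kb from a summit, -0.34 with all tags kept, -0.26 with a pseudocount of 2, -0.29 on the minus strand and -0.45 at regions called from shControl, which favours high control counts. Lower calls (1321) were 3334 by windows, 568 by the median region, 808 at regions from shSpt5 and shNelfE (fewer regions), 2124 at a fold of 1.5 and 849 on the plus strand (fewer tags). Higher calls (166) were 42, 379, 98 and 264 under the first 4 of these, 24 at regions from shControl, 98 with at least 20 tags in the pair and 110 on the minus strand. The share of tags in regions was 17.0% in shSpt4 and 20.4% in shControl. It was 16.0% and 19.2% at a p of 1e-12, 17.8% and 21.8% with all tags, 14.2% and 17.9% at regions from shControl, 14.4% and 17.2% at regions from shSpt5 and shNelfE, and 16.8% and 20.2% with unmoved tags. The ratio in windows was 1.38 as a median over windows and 1.25 in windows of 500 kb. The centre over flank ratio of 0.914 was 0.839 at isolated regions and 0.898 with unmoved tags, and the focal difference was -0.19 with background taken off. The overlaps of shSpt4 and shControl regions were 88.3% and 70.1% when 50% of the region had to overlap, and 91.7% and 76.2% at a p of 1e-12. Scalings by strand and by tags over 10 kb from a summit were added after seeing the data. No paired analysis was possible because each group has 1 library. Where no reason is given, the cause was not tested.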

Other observations

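The 5 mitochondrial regions ran against the nuclear ones. Together they had more tags in shSpt4, with a ratio of 1.66 (1.51 to 1.83) by total tags, and each of the 5 was above 1. Scaled to windows without regions, their summed ratio was 1.25. Whether these tags reflect Pol II or background was not tested. The median over the 5 was 1.70, beside 2.43 for shSpt5 and 1.20 for shNelfE against the same control. The 20 regions on Y had a summed ratio of 1.17 (0.920 to 1.48), within counting error of 1. Of the deposited read lines, 6.96% in shSpt4 and 6.72% in shControl were in the second read category, which entered no comparison.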
